A study of Mus musculus with 24 samples.

Results

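The Krüppel-like factor (Klf) genes Klf2, Klf3, Klf4, Klf6, Klf7, Klf9, Klf10, Klf13, Klf15 and Klf16 were followed in the nucleus accumbens (NAc) of male and female mice. The members were listed by gene symbol, and they were 10 of the 52636 genes in the count files. RNA-seq had been done on mice labelled C57BL/6 (C57BL/6J in the methods of the study), 1 library per animal from bilateral NAc punches, with 6 animals in each of 4 groups. Con females and Con males were reared without the manipulation, and MSUS females and MSUS males had gone through early-life stress in the form of daily maternal separation. The GEO description gives 2 hours of separation per day from postnatal day 1 to 14, whereas the methods of the study give a longer daily separation and add unpredictable stress to the dam. All 24 animals were taken at 50 days of age. They received no drug or transgene, and the female groups were said to be balanced for estrous stage, which was not used here because the labels assign stages to males and leave some females without one.

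Krüppel-like factors are transcription factors whose C-terminal zinc fingers bind GC boxes and CACCC boxes in promoters and enhancers. Klf2, Klf4, Klf6 and Klf7 mostly act as activators, Klf3 is a repressor that recruits CtBP proteins, and Klf9, Klf10, Klf13 and Klf16 repress through the Sin3 corepressor and its histone deacetylases, while Klf15 stands apart. In neurons, Klf6 and Klf7 are known for promoting axon growth, Klf4 and Klf9 for limiting it, and Klf9 and Klf15 are well-known targets of glucocorticoid hormones.

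The promoters of the members whose level passed a test below are shown first, since Klf proteins bind the letters searched for and can regulate each other's genes. The RefSeq table (GRCm38.p6) held 8 of the 10 members, with Klf10 and Klf16 not in it. Each run is the 250 bases before the RefSeq transcript start, 5′ to 3′ on the gene's strand, with every CACCC (or its reverse GGGTG) and every GC box GGGCGG (or CCGCCC) in capitals. The Klf13 gene (chr7:63886351-63938915) lies on the minus strand and its window is chr7:63938916-63939165. Klf9 (chr19:23141226-23168134) and Klf2 (chr8:72319033-72321656) lie on the plus strand, with windows chr19:23140976-23141225 and chr8:72318812-72319061. Gene positions are those of GENCODE M21, whose Klf2 start lies upstream of the RefSeq start, so the end of the Klf2 window is inside the gene as given here.
Klf13: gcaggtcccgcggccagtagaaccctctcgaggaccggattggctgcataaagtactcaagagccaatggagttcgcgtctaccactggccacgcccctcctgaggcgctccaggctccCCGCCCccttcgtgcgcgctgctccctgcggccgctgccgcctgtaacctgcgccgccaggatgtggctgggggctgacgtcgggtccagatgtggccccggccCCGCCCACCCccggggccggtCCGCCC
Klf9: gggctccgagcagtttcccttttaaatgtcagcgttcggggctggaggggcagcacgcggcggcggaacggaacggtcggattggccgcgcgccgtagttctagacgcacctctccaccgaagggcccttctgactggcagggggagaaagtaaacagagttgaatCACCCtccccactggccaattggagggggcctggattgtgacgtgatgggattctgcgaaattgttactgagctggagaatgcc
Klf2: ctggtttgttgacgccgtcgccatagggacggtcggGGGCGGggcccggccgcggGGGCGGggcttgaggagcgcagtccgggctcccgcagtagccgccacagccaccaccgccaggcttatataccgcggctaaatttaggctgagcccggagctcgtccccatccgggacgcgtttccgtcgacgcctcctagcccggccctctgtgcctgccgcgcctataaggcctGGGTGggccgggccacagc
The Klf13 window held 3 GC boxes and 1 CACCC, and 1 of the GC boxes shares letters with the CACCC. The Klf9 window held 1 CACCC and 0 GC boxes, and the Klf2 window held 2 GC boxes and 1 CACCC. Over the 8 windows, a GC box was found in 7 and a CACCC in 6, beside 32.7% and 52.0% of all 32851 promoter windows in the table. TGACG (or CGTCA), part of the element bound by CREB, was found in 5 of the 8 and in 17.8% of all windows, and it was present once in each of the 3 printed above. The windows were rich in G and C, at 71.6% for Klf13, 59.6% for Klf9 and 71.2% for Klf2 against a median of 52.4%, and a match of letters is a description of sequence only.

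The libraries held 39923666 to 70575745 read pairs assigned to genes, and the lowest raw count of any of the 10 genes in any library was 140 (Klf4) and the highest was 16474 (Klf13). Pairs mapped to the genome but to no annotated feature of the counted strand, called the unassigned share below, made up 31.0 to 44.7% of uniquely mapped pairs. Sex-linked genes matched the labelled sex in 24 of 24 libraries. Markers of striatal projection neurons were present in all libraries, with summed normalized counts (counts divided by the library's size factor) of 100698 to 265175. Markers of cortical excitatory neurons, which the accumbens itself has few of, varied between punches: their score, the mean log2 CPM (log2 of counts scaled to library size) of 7 genes, ran from 2.595 in MSUS female 5 to 7.65 in Con female 3 and 7.70 in MSUS male 6.

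The 10 genes were expressed at very different levels. Per kilobase of annotated exon, and averaged over 24 libraries, Klf9 stood at 1694 ± 206 (SD) normalized counts, Klf16 at 1587 ± 227 and Klf13 at 1563 ± 230, which placed these Sin3-binding repressors at the 94.4, 94.0 and 93.8 percentile of the 21450 genes with a length. These 3 did not differ beyond their spread: Klf9 was above Klf16 in 14 of 24 libraries and Klf16 above Klf13 in 18 of 24. Klf7 followed at 612 ± 91.3 and was below Klf13 and above the next gene in 24 of 24 libraries. Klf6 stood at 373 ± 133, Klf15 at 263 ± 21.6, Klf10 at 248 ± 79.5 and Klf3 at 194 ± 20.3, and the neighbours of this middle group were in that order in only 18 or 19 of 24 libraries. Klf2 (147 ± 28.3), best known from endothelial cells, was below Klf3 in 23 of 24 libraries, and Klf4 (70.0 ± 13.6), best known as a reprogramming factor, was below Klf2 in all 24. When length was taken from the longest transcript in place of all exons, Klf3 moved to 419, Klf10 to 340, Klf15 to 296, Klf13 to 1840 and Klf9 to 1818 per kilobase. The order among Klf3, Klf6, Klf10 and Klf15, and that among Klf9, Klf16 and Klf13, thus depends on which exons are counted.

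**Figure D1:**
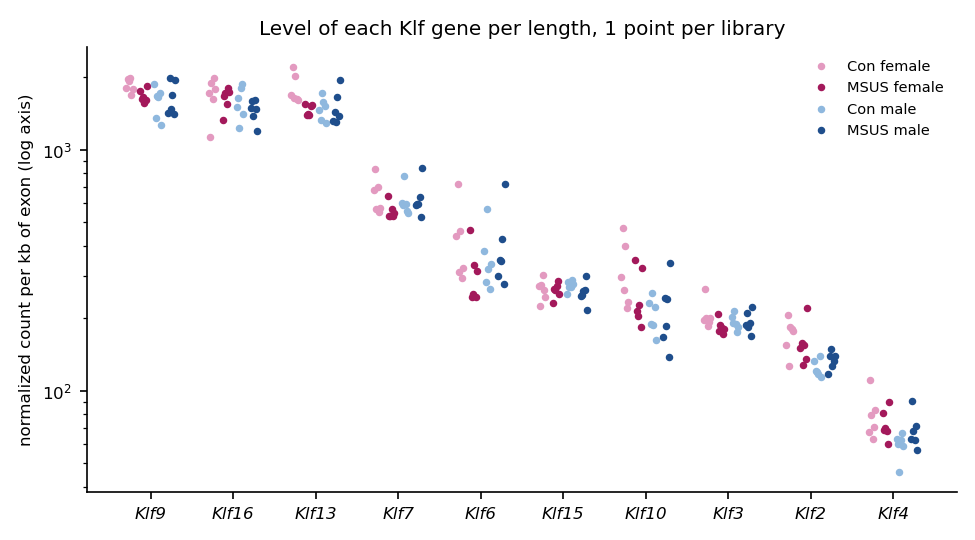
Normalized count per kilobase of exon (y axis, log scale) for each Klf gene (x axis, from highest to lowest mean), with 1 point per library coloured by group. Klf9, Klf16 and Klf13 lie together at the top, from 1126 to 2197, Klf7 lies between 527 and 837, and Klf4 is lowest at 45.9 to 111.

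Some genes were far more even across animals than others. Klf15, which controls amino acid and glucose metabolism in other tissues, had the smallest coefficient of variation over the 24 libraries (8.22%), followed by Klf3 (10.5%) and Klf9 (12.2%). Klf6 (35.6%) and Klf10 (32.1%) had the largest, with highest-to-lowest ratios of 2.94 for Klf6 and 3.43 for Klf10. Klf10 is also called TGF-beta inducible early gene, and both it and Klf6 are known to be induced by stimulation.

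In females, MSUS animals had less Klf13 and less Klf9 mRNA than Con animals, and none of the other members passed the test. This comparison asks whether early-life stress was followed by a change still present in females at 50 days of age. 2 of the 10 Klf genes had an adjusted p under 0.10, both lower in MSUS, beside 25.1% of all 20571 genes tested that were called and 11.9% that were called lower, so a share of 2 in 10 is close to the background. An unadjusted p under 0.05 was reached by 3 of the 10 (Klf13, Klf9 and Klf7) and by 32.7% of all genes. All 10 log2 fold changes were below 0, with a median of -0.16, while 10410 of the 20571 genes tested were below 0. In bulk tissue, fewer cells of a type and less RNA per cell cannot be told apart.

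Klf13, a Sin3-binding repressor also studied in T cells and heart, had normalized counts of 12092 (lowest), 12539 (median) and 16549 (highest) in Con females and 10453, 11036 and 11598 in MSUS females. Every MSUS female was below every Con female. Klf13 was the only member whose groups did not overlap in this comparison, beside 7.21% of all genes tested. Its log2 fold change was -0.29 ± 0.08 (SE, adjusted p = 0.0261, edgeR), a level 0.817 times that of Con. Without Con female 3, whose Klf13 count was the highest, the log2 fold change was -0.23 (adjusted p = 0.0274), and the call held in 12 of 12 fits that left out 1 library.

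Klf9, a repressor induced by glucocorticoids and thyroid hormone, ran from 8116 through a median of 8998 to 9539 normalized counts in Con females and from 7502 through 7913 to 8872 in MSUS females. The groups overlapped, with the highest MSUS females inside the Con range. The log2 fold change was -0.15 ± 0.05 (SE, adjusted p = 0.0624, edgeR), 0.902 times the Con level. The Klf9 call was lost without Con female 2 or without MSUS female 2, 3, 4 or 5, with adjusted p from 0.109 to 0.149, and it held in the other 7 of 12 fits.

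Klf16, the third abundant Sin3-binding member, was not called. Con females ran from 3010 through 4678 to 5315 normalized counts and MSUS females from 3565 through 4525 to 4829. The MSUS range lay within that of Con, and the log2 fold change was -0.04 ± 0.12 (SE, adjusted p = 0.838). Klf10, of the same group, ran from 922 through 1167 to 1968 in Con females and from 771 through 919 to 1460 in MSUS females. These ranges overlapped widely, and the log2 fold change of -0.32 ± 0.22 (SE, adjusted p = 0.335) was not called.

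Among the activators, Klf6 had the largest estimate and the widest error. Con females ran from 1287 through 1669 to 3152 normalized counts and MSUS females from 1079 through 1237 to 2044. The ranges overlapped, and the log2 fold change was -0.45 ± 0.24 (SE, adjusted p = 0.213). Klf7 ran from 4468 through 5097 to 6763 in Con females and from 4298 through 4387 to 5199 in MSUS females, with a log2 fold change of -0.22 ± 0.10 (SE, adjusted p = 0.134). The ranges of Klf7 overlapped as well. Without MSUS female 1, Klf6 (adjusted p = 0.0906), Klf7 (0.0824) and Klf3 (0.0937) passed the threshold, as Klf7 also did without Con female 4 (0.0754) or Con female 5 (0.0925). Those fits called 27.7%, 24.5% and 23.3% of all genes. Klf2 (log2 fold change -0.12 ± 0.14) and Klf4 (-0.12 ± 0.14) were not called.

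Klf3, the CtBP-recruiting repressor, ran from 2086 through 2228 to 2977 normalized counts in Con females and from 1925 through 2040 to 2349 in MSUS females. Its highest value, in Con female 3, stood apart from the other Con females. The log2 fold change was -0.16 ± 0.08 (SE, adjusted p = 0.170). Klf15 had the smallest estimate of the 10, with 627, 743 and 845 in Con females against 642, 735 and 796 in MSUS females and a log2 fold change of -0.01 ± 0.07 (SE, adjusted p = 0.955).

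**Figure D2:**
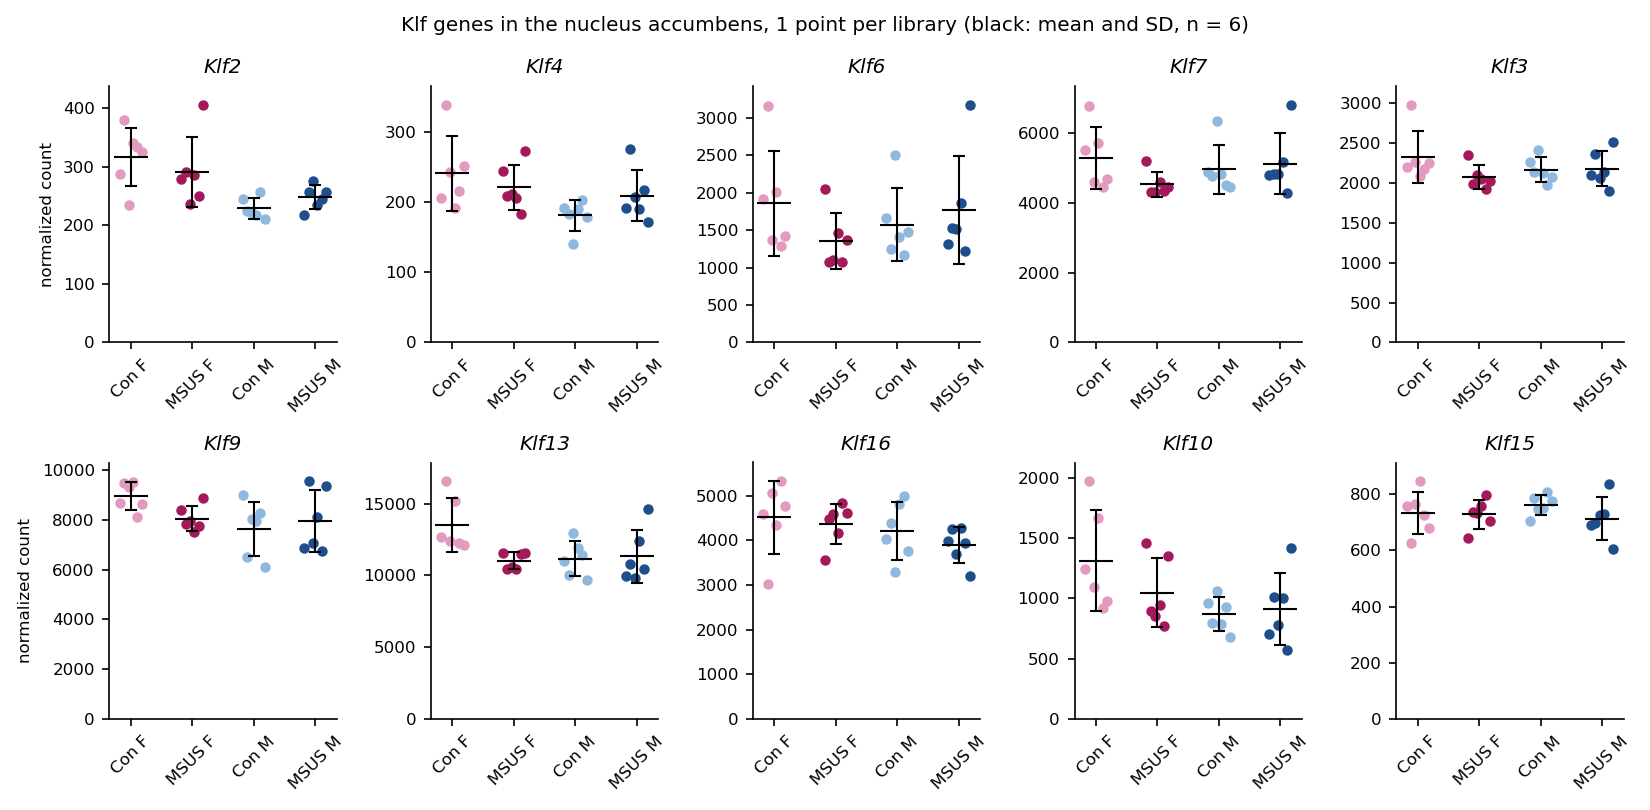
Normalized count of each Klf gene (y axis, starting at 0) in the 4 groups (x axis), with 1 point per library and the mean and SD in black (n = 6). Klf13 is the panel where all MSUS females (10453 to 11598) sit below all Con females (12092 to 16549).

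Several measures of the libraries moved with this comparison, and 2 of them were tried as covariates. The unassigned share was 31.0 to 34.8% in Con females and 36.3 to 43.9% in MSUS females, with no overlap (exact permutation test of the means, two-sided p = 0.0022, adjusted p = 0.0433 over 40 tests of library measures). The cortical marker score was 4.98 to 7.65 in Con females and 2.595 to 6.64 in MSUS females (exact permutation p = 0.0346, adjusted p = 0.184). Of its 7 genes, 2 (Camk2a and Nrgn) were called lower in MSUS and 5 were not called, where 11.9% of all genes were called lower. The median log2 fold change over the 7 was -1.82. The summed normalized counts of the 7 ran from 107970 to 196526 in Con females and from 88632 to 130124 in MSUS females, and none of them was at 0 in any group. The sum of 88632 was that of MSUS female 5, the library with the lowest score. Whether all 7 genes are absent from striatal neurons was not tested, so the calls and sums are not a measure of cortical tissue alone. The marker scores (mean log2 CPM) of mature oligodendrocytes (7.96 in MSUS against 8.19 in Con, exact permutation p = 0.0130, adjusted p = 0.130), astrocytes (6.59 against 6.71, exact permutation p = 0.0195, adjusted p = 0.144), mural cells (3.96 against 4.08, exact permutation p = 0.0216, adjusted p = 0.144) and endothelial cells (4.33 against 4.41, exact permutation p = 0.0368, adjusted p = 0.184) were lower in MSUS females by unadjusted p as well, and their part in the result was not tested. With the cortical score as a covariate the log2 fold change was -0.15 for Klf13 (adjusted p = 0.303) and -0.09 for Klf9 (adjusted p = 0.420). With the unassigned share as a covariate they were -0.27 (adjusted p = 0.760) and -0.13 (adjusted p = 0.789), and 0 of 20571 genes were then called, since this share separates the 2 groups completely and cannot be told apart from them. With offsets for length and GC content, Klf13 fell by 0.19 on the log2 scale (adjusted p = 0.105) and Klf9 by 0.14 (adjusted p = 0.0978).

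In males, none of the 10 Klf genes passed the test between MSUS and Con. The count was 0 of 10 by edgeR's quasi-likelihood test and 0 of 10 by DESeq2 (which called 0% of all genes), at an unadjusted p under 0.05 it was also 0 of 10, and of all 20691 genes tested 0% were called and 0.923% had an unadjusted p under 0.05. Klf13 ran from 9687 through 11209 to 12957 normalized counts in Con males and from 9829 through 10618 to 14637 in MSUS males. Klf9 ran from 6119 through 7984 to 8993 in Con males and from 6757 through 7604 to 9549 in MSUS males. In both genes the ranges overlapped, with the highest values in MSUS males, and the log2 fold changes were 0.02 ± 0.10 for Klf13 and 0.06 ± 0.11 for Klf9. The largest estimate was that of Klf4 (0.21 ± 0.12), the lowest that of Klf16 (-0.12 ± 0.10), and the median over the 10 was 0.05. The estimates of Klf6, Klf7 and Klf10 rested on MSUS male 6, the library with the highest cortical score, and changed from 0.17, 0.04 and 0.07 to -0.08, -0.05 and -0.09 without it.

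Females and males of the Con group were compared to see which members differed by sex without the stress. Klf2 was higher in Con females, by a log2 fold change of 0.47 ± 0.10 (SE, adjusted p = 0.0683, edgeR), 1.39 times the level in Con males. It was the 1 member of 10 called, beside 2.64% of 20641 genes called and 0.799% called higher in females. At an unadjusted p under 0.05 there were 5 of 10 (Klf2, Klf4, Klf9, Klf10 and Klf13, all higher in females) beside 17.8% of all genes.

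Klf2 ran from 234 through 329 to 379 normalized counts in Con females and from 211 through 222 to 256 in Con males. Only the lowest Con female lay inside the male range. MSUS females (237, 282 and 405) and MSUS males (218, 251 and 276) overlapped each other. The call was lost without Con female 1, 2 or 4 or Con male 1, 3, 4 or 6 (adjusted p from 0.111 to 0.162), and held in 5 of 12 fits that left out 1 library.

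The other members with estimates of this size were not called. Klf10 had a log2 fold change of 0.60 ± 0.19 (SE, adjusted p = 0.136), with 676, 861 and 1063 normalized counts in Con males against 922, 1167 and 1968 in Con females. Klf4 had 0.42 ± 0.13 (adjusted p = 0.139), with 140, 187 and 204 in Con males against 192, 229 and 339 in Con females. Klf13 had 0.28 ± 0.09 (adjusted p = 0.141) and Klf9 had 0.23 ± 0.09 (adjusted p = 0.190), and for both the highest Con males were within the range of Con females. 0 of the 10 members had groups that did not overlap, beside 2.01% of all genes. By DESeq2, 4 members passed, adding Klf4 (adjusted p = 0.0783), Klf10 (0.0411) and Klf13 (0.0847) to Klf2 (0.00333), beside 7.32% of all genes called by that tool. Con females and Con males also differed in the unassigned share (31.0 to 34.8% against 34.7 to 40.6%, exact permutation p = 0.0043, adjusted p = 0.0577), and with it as a covariate the log2 fold change of Klf2 was 0.76 (adjusted p = 0.870), while with the cortical score it was 0.44 (adjusted p = 0.150).

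Between MSUS females and MSUS males, 0 of the 10 genes were called by edgeR and 0 by DESeq2, beside 0.135% of 20714 genes called by edgeR and 0.806% by DESeq2. An unadjusted p under 0.05 (edgeR) was reached by 0 of the 10 and by 1511 of the 20714 genes. Klf2 had the largest positive estimate (0.23 ± 0.12) and Klf6 the largest negative one (-0.39 ± 0.25). The 2 sex comparisons and the 2 MSUS comparisons share groups, so their values are not independent: Con females enter the comparisons in which members were called. The group-by-sex interaction, which asks whether the MSUS difference was different in females and males, called 0 of the 10 members by edgeR and 0 by DESeq2, beside 0% of 21500 genes by edgeR and 2.17% by DESeq2. Without MSUS male 1, edgeR called 3031 of 21617 genes for the interaction and 0 of the 10 members. At an unadjusted p under 0.05 there was 1 member, Klf13, beside 18.7% of all genes. Its interaction term was -0.32 ± 0.13 (SE, adjusted p = 0.233), and it was the member closest to the threshold. Thus the call for Klf13 in females and its absence in males were not shown to differ. Without both Con female 3 and MSUS male 6, a setting chosen after seeing the data, the interaction term of Klf13 was -0.16 and that of Klf6 was -0.16 in place of -0.63.

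**Figure D3:**
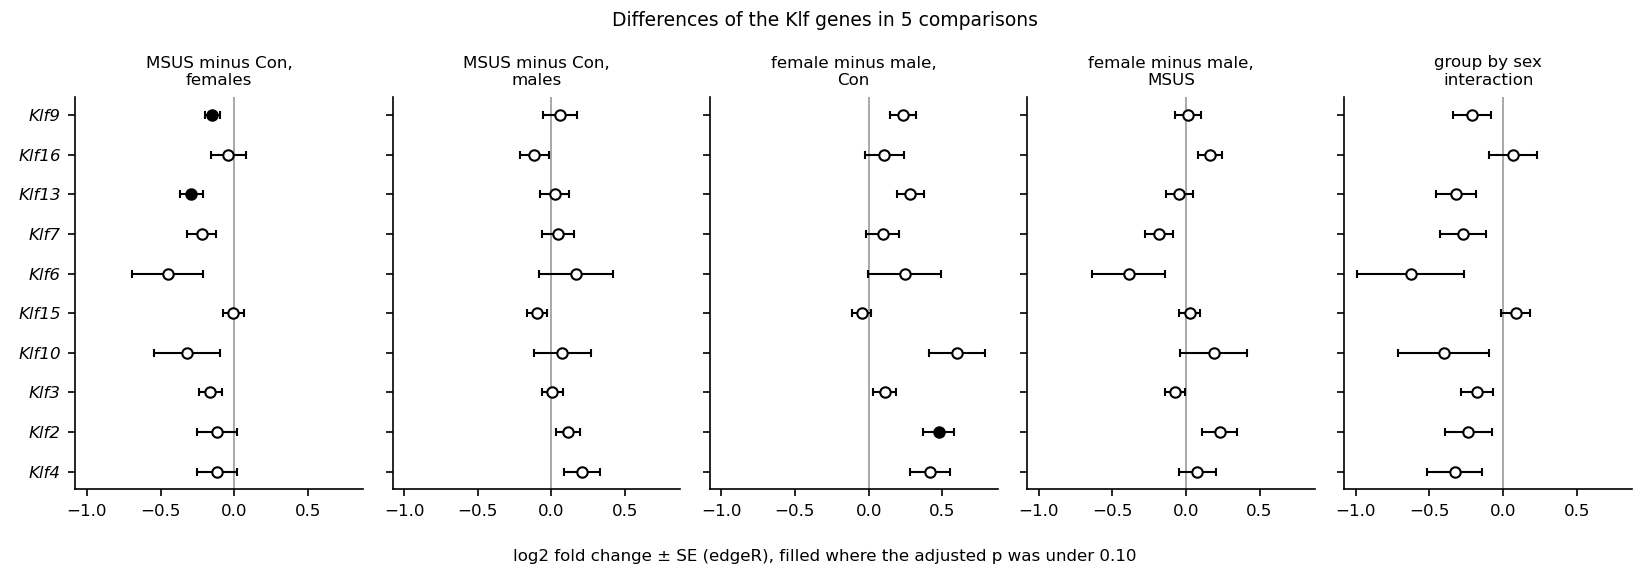
Log2 fold change and SE of each Klf gene (y axis, ordered by level per length) in the 5 comparisons (panels), with filled points where the adjusted p was under 0.10. Filled points are Klf9 (-0.15) and Klf13 (-0.29) for MSUS against Con in females and Klf2 (0.47) for females against males in Con.

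The 10 genes did not vary independently across animals. On the log2 CPM scale over 24 libraries, Klf6 and Klf7 varied together (Pearson r = 0.959, and 0.954 once group means were removed). Klf10 and Klf13 (0.826), Klf3 and Klf6 (0.814) and Klf9 and Klf10 (0.803) were the next most alike. Klf16 and Klf15 ran the other way, with r = -0.759 for Klf6 and Klf16 and -0.715 for Klf3 and Klf15, and 0.497 with each other. Klf2 and Klf4, both known from vessel cells, were alike at 0.637. These values describe libraries that share punches, depth and processing, and carry no test.

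The cortical marker score rose with some of these genes. Of 20 relations computed (10 genes with the cortical score and with the unassigned share), 6 with the cortical score and 1 with the unassigned share had an adjusted p under 0.05 in a permutation test of Pearson's r. For Klf6 and the cortical score, r was 0.877 (permutation p = 1e-05, the smallest the permutations can give, adjusted p = 0.0001) and Spearman's rho was 0.904 (permutation p = 1e-05), and r was 0.874 without MSUS female 5 and MSUS male 6, the libraries farthest from the median score. For Klf7, r was 0.872 (permutation p = 1e-05, adjusted p = 0.0001), rho 0.925 (permutation p = 1e-05) and r without those libraries 0.880. Within each of the 4 groups of 6, r ran from 0.744 to 0.927 for Klf6 and from 0.823 to 0.950 for Klf7. For Klf13 it was 0.411 in MSUS females and 0.831 to 0.887 in the other groups, and for Klf9 it was 0.203 in MSUS females and 0.704 to 0.754 in the other groups. Klf13 (r = 0.749, rho = 0.743), Klf10 (0.724, 0.751), Klf3 (0.696, 0.716) and Klf9 (0.594, 0.640) were positive too, with adjusted permutation p from 0.000267 to 0.00669 for r and from 0.00032 to 0.00323 for rho, and r between 0.619 and 0.740 without those 2 libraries. Klf16 (r = -0.467, adjusted permutation p = 0.0535) and Klf15 (r = -0.420, adjusted permutation p = 0.0683) were negative and did not pass, and Klf2 (0.233) and Klf4 (0.0158) did not pass.

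**Figure D4:**
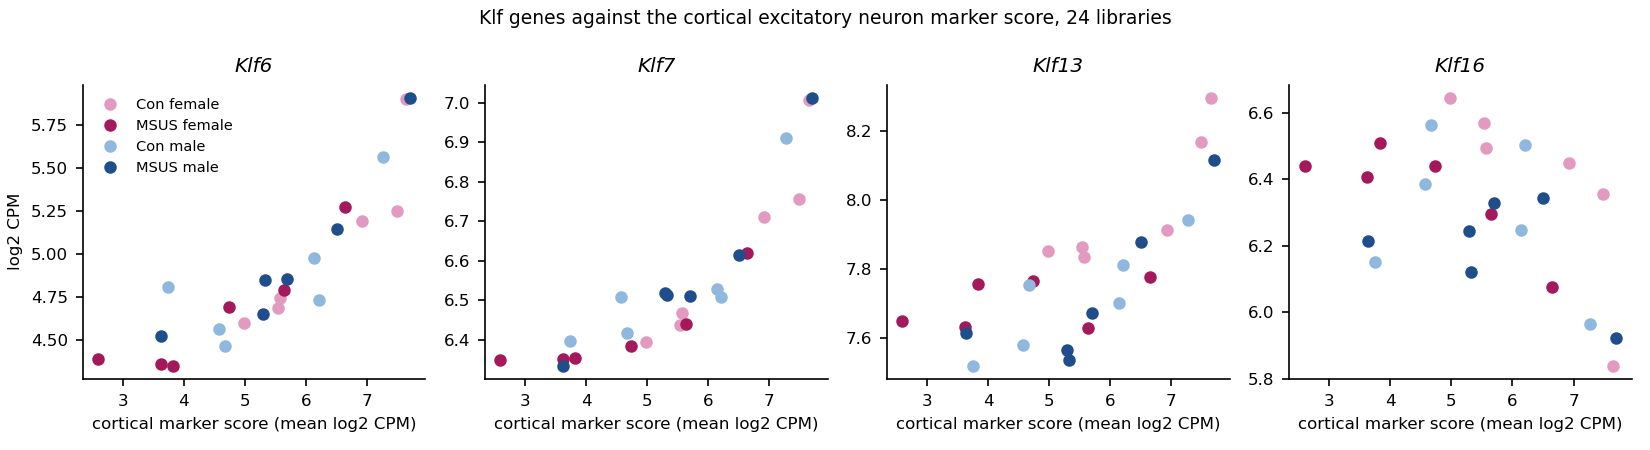
Log2 CPM of Klf6, Klf7, Klf13 and Klf16 (y axes) against the cortical excitatory neuron marker score (x axis, mean log2 CPM of 7 genes) in 24 libraries coloured by group. Klf6 (r = 0.877), Klf7 (0.872) and Klf13 (0.749) climb with the score and Klf16 (-0.467) declines.

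For the unassigned share, Klf13 had r = -0.684 (permutation p = 0.0002, adjusted p = 0.000667) and rho = -0.755 (permutation p = 3e-05, adjusted p = 0.0002), and r was -0.662 without MSUS female 3 and MSUS male 1. The permutations, here and for the cortical score, took all 24 libraries without regard to group, so group differences enter these p-values. With group means removed, r for Klf13 and the unassigned share was -0.495. Within groups, r was 0.277 in Con females and between -0.765 and -0.571 in the other 3 groups. The value in Con females rests on 6 libraries with a share of only 31.0 to 34.8%, and whether r differed between groups was not tested. No other member passed with this share.

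Each member was set beside the genes most like it among 14303 genes with a mean of at least 100 counts, again as a description over 24 libraries. Klf2 was most like the activity-induced genes Nr4a1 (r = 0.885), Arc (0.822) and Dusp1 (0.803), and Klf10 was most like Dusp6 (0.951), a phosphatase induced by ERK signalling, Stk40 (0.922) and Gpr3 (0.918). Klf6 was most like Ppm1e (0.987), Oxr1 (0.986) and Stmn1 (0.981), and Klf7 most like the transcription factor genes Zeb2 (0.977) and Tcf4 (0.969) and Pgm2l1 (0.969). Klf16 was most like the postsynaptic scaffold gene Shank3 (0.975), Arhgap33 (0.969) and Psd (0.959). Klf13 went with Mmp17 (0.966), Diras2 (0.963) and Mtmr12 (0.955), and Klf9 with Inka2 (0.913), the kinase gene Camkk2 (0.911) and Ankrd33b (0.909). Klf3 had Fam3c (0.921), Eif1ax (0.910) and Ube2e3 (0.909), Klf15 had Plxnb1 (0.842), Pik3ip1 (0.836) and Ctnna1 (0.816), and Klf4 had the weakest neighbours, Fam160b1 (0.711), Rnf19a (0.705) and Abhd17c (0.684).

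Genes that work with or upstream of the Klf proteins were counted as lists. Of 16 other Klf and Sp family genes, 13 were tested in females, 3 fell in MSUS and 0 rose, where 11.9% of all genes were called lower and 25.1% were called. The lists of this comparison are to be read against those shares. Klf12 (log2 fold change -0.11 ± 0.03 SE, adjusted p = 0.0393), a CtBP-binding relative of Klf3, and Klf11 (-0.28 ± 0.09, adjusted p = 0.0549), a Sin3-binding relative of Klf10, fell, as did the low Sp6 (-0.53 ± 0.18, adjusted p = 0.0654), with 33.7 normalized counts on average in Con females. The median over the 13 was -0.03. Of 12 cofactors and regulators, 2 fell: Ctbp1 (-0.17 ± 0.03, adjusted p = 0.00624), the corepressor that Klf3 binds, and Sap30 (-0.31 ± 0.10, adjusted p = 0.0429), a subunit of the Sin3 complex that Klf9 and Klf13 recruit.

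Of 15 glucocorticoid receptor and response genes, 3 fell in MSUS females and 0 rose, beside 11.9% of all genes called lower, with a list median of -0.15. These were Cdkn1a (-0.26 ± 0.07, adjusted p = 0.0319), Hsd11b1 (-0.48 ± 0.18, adjusted p = 0.0780), which regenerates active glucocorticoid inside cells, and Errfi1 (-0.16 ± 0.06, adjusted p = 0.0803). Of 9 thyroid hormone signalling genes, Hr fell (-0.65 ± 0.16, adjusted p = 0.0187) and Dio3, which inactivates thyroid hormone, rose (1.17 ± 0.36, adjusted p = 0.0458). Of 20 immediate early genes 2 fell, Jund (-0.18 ± 0.05, adjusted p = 0.0230) and Jun (-0.42 ± 0.11, adjusted p = 0.0284), and of 12 TGF-beta signalling genes 2 fell, Tgfb3 (-0.28 ± 0.09, adjusted p = 0.0547) and Smad7 (-0.24 ± 0.08, adjusted p = 0.0624). Of the dopamine receptors and monoamine oxidases, whose promoters some Klf proteins bind, 0 of 6 tested were called by edgeR. In males, 0 genes of these 7 lists were called.

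Between Con females and Con males the lists looked different from each other. Of 20 immediate early genes, 8 were higher in females and 0 lower, beside 0.799% of all genes called higher and 2.64% called, with a median log2 fold change of 0.68, among them Egr4 (0.69 ± 0.10, adjusted p = 0.0127), Egr1 (0.68 ± 0.11, adjusted p = 0.0348), Arc (1.24 ± 0.22, adjusted p = 0.0562) and Nr4a1 (1.03 ± 0.19, adjusted p = 0.0582). Nr4a1 and Arc are also the genes Klf2 was most like, but that likeness was computed over the same libraries and is not separate evidence. With group means removed, r with Klf2 was 0.790 for Nr4a1 and 0.653 for Arc. Of 15 glucocorticoid response genes 3 were higher in females: Dusp1 (0.76 ± 0.14, adjusted p = 0.0562), Cdkn1a (0.30 ± 0.07, adjusted p = 0.0732) and Per1 (0.32 ± 0.07, adjusted p = 0.0763). Of the other Klf and Sp genes, 0 of 14 tested were called by edgeR, and Klf11 had 0.09 ± 0.11.

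Markers of the cell types that can express these genes are given for comparison. Endothelial markers, the usual site of Klf2 and Klf4, had 1 of 12 genes called lower in MSUS females (Esam, -0.16 ± 0.05, adjusted p = 0.0408), with a list median of -0.09, and 0 of 12 called between Con females and Con males. Their summed normalized counts were 15547 to 17531 in Con females, 15654 to 16477 in MSUS females, 15683 to 17084 in Con males and 15629 to 17660 in MSUS males, and none of the 12 was at 0. Mature oligodendrocyte markers fell in MSUS females in 5 of 7 cases, with a median of -0.25 and summed counts of 194942 to 238493 against 213561 to 322816 in Con females. Astrocyte markers fell in 2 of 7, mural markers in 3 of 6, oligodendrocyte precursor markers in 1 of 6 and microglia markers in 0 of 7. These counts stand beside 11.9% of all genes called lower in MSUS females, and the endothelial count for sex beside 2.64% of all genes called. The part of these shifts in the Klf differences was not tested.

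The 3 called differences were recomputed under every setting. Klf13 in females kept its sign in all fits, with log2 fold changes from -0.32 to -0.15, and Klf9 stayed between -0.18 and -0.09. Klf2 in the sex comparison of Con stayed between 0.35 and 0.76. At the threshold of 0.10, the call held in 8 of 12 alternative fits for Klf13, 7 of 12 for Klf9 and 6 of 12 for Klf2. With 1 library left out, it held in 12 of 12, 7 of 12 and 5 of 12 fits.

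**Figure D5:**
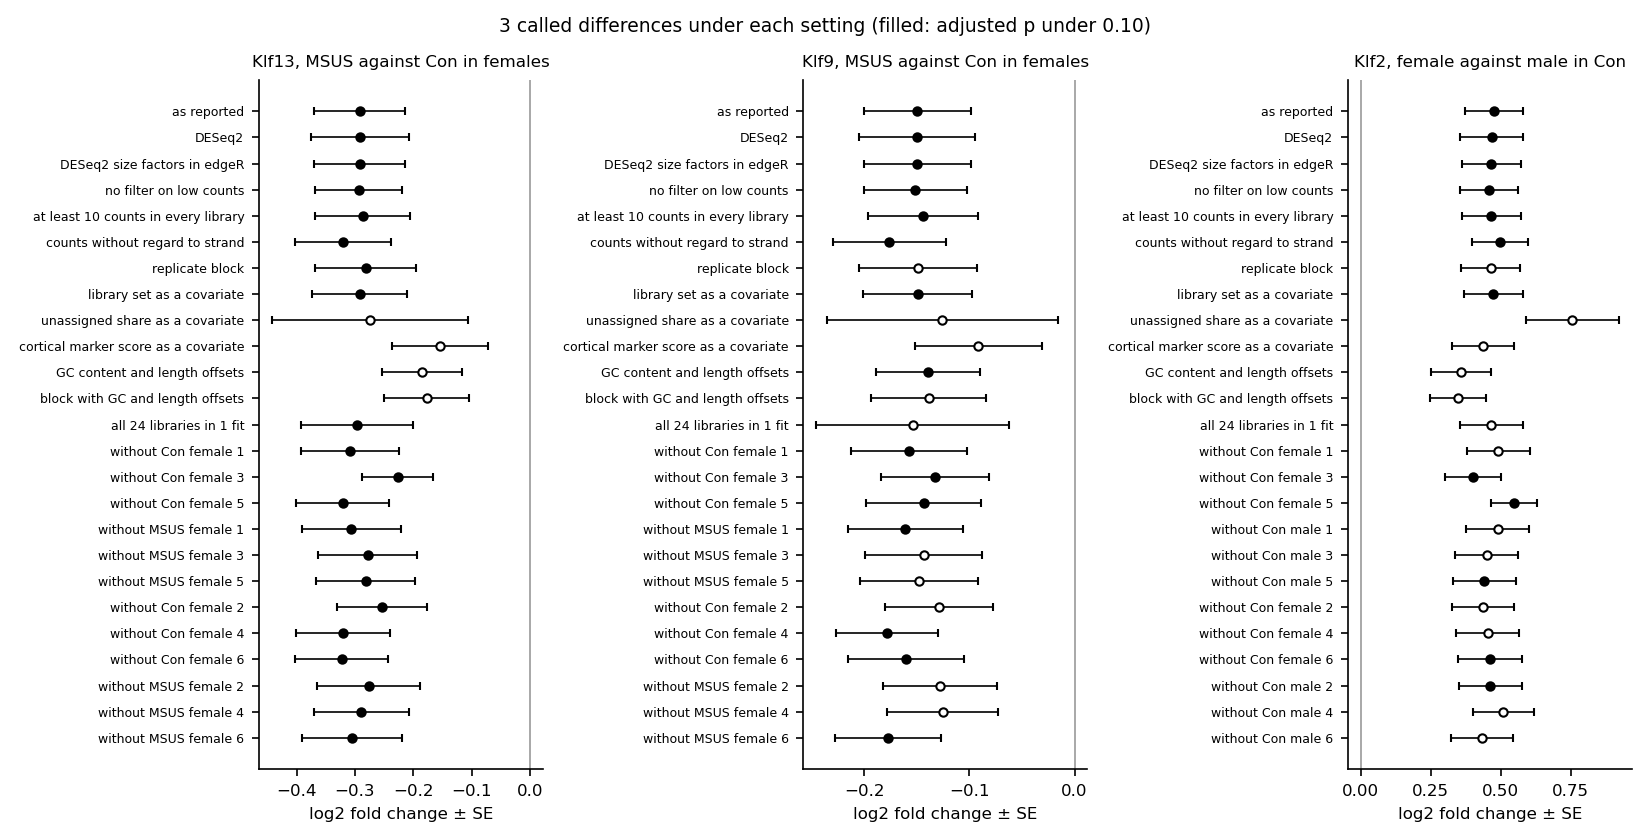
Log2 fold change and SE (x axes) of Klf13 and Klf9 for MSUS against Con in females and of Klf2 for females against males in Con, under each setting and with each library left out (y axes), filled where the adjusted p was under 0.10. Klf13 lies between -0.32 and -0.15 and loses its call with the 2 library covariates and with the GC content and length offsets. Klf9 loses its call in 10 of the fits shown and Klf2 in 13.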

How the data were processed

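Total RNA from NAc punches was depleted of ribosomal RNA and sequenced as stranded pairs. Per the labels and the methods of the study, reads were called with CASAVA 1.8 and the authors aligned them to mm10 with STAR 2.6.1b and GENCODE M15, and deposited 1 file of gene counts per library, with raw counts without strand and for each strand. The reverse-strand counts were used here, since this column holds most pairs. Summary rows (no feature, ambiguous) stayed out of library sizes and tests. They held 31.0 to 44.7% and 0.749 to 0.939% of uniquely mapped pairs.

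Gene names, exon lengths and positions came from GENCODE M21 (GRCm38), which held 52489 of the 52636 IDs. Klf3 and Klf7 overlap exons of opposite-strand gene models, which stranded counting keeps apart.

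Counts were tested with edgeR 4.0.16 (R 4.3.3): filterByExpr (minimum count 10), TMM, robust quasi-likelihood F test, Benjamini-Hochberg adjustment over all genes tested, threshold 0.10. Each comparison used its 12 libraries and the interaction all 24. Levels are counts divided by DESeq2 1.42.0 median-of-ratios size factors. Log2 CPM used a prior count of 2. Library measures were compared with exact permutation tests and relations with 100000 resamples (scipy 1.17.1). The fits were tested on simulated counts with known changes, drawn independently for each gene. Of 100 log2 changes of 0.5, the fit of MSUS against Con in females recovered 85% and the interaction 73%. False calls made up 5.64% of calls in females and 10.4% for the interaction. The simulation held no variation shared between genes, so it does not cover the cortical score or the unassigned share. Replicates are separate animals, and no 2 libraries of a group agreed within sampling noise (lowest chi-square per gene 5.88 over 60 pairs). In the study, whole litters rather than single animals were placed in Con or MSUS. The litter of each animal was not used here, so the tests treat animals as independent and do not account for siblings. The 10 members are described in full. From each list the members with the smallest p (up to 4) are named, with Klf11 and Klf12 and the 3 genes most correlated with each member, and the other genes named were chosen after their values were seen. The members, lists and tests were chosen with earlier results of these data known. Replicate numbers did not pair the samples: same-numbered libraries correlated between -0.373 and 0.398. The alternatives were DESeq2, its size factors, 2 filters, counts without strand, a replicate block, library set, unassigned share, cortical score, offsets for GC content and length, 1 fit of all libraries, a threshold of 0.05 and leaving out each library.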

Additional observations from a re-analysis of the deposited data

Results flagged for a closer look

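7 of the 40 sets of 6 libraries (10 genes in 4 groups) had 1 library far from the others by Dixon's test, where chance flags about 1 in 20. The values are normalized counts. Klf6 in Con male 5 was 2498 against 1662 for the next library, and Klf7 in the same library was 6340 against 4886. Klf6 in MSUS male 6 was 3170 against 1863, and Klf7 in the same library was 6804 against 5158. Klf7 in MSUS female 1 was 5199 against 4596. Klf3 in Con female 3 was 2977 against 2260. These 4 libraries had cortical marker scores of 7.27 (Con male 5), 7.70 (MSUS male 6), 6.64 (MSUS female 1) and 7.65 (Con female 3), each the highest of its group. Klf2 in MSUS female 6 was 405 against 291, in a library with a cortical score of 4.74.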

How the results depend on the processing

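In females, 2 of the 10 Klf genes were called. The count was 1 with the replicate block, the GC content and length offsets, all 24 libraries in 1 fit or a threshold of 0.05, and 0 with the unassigned share, the cortical score or the replicate block with the offsets. It was 3 with counts without strand (adding Klf7) and ran from 1 to 5 without 1 library. Of all genes, 25.1% were called, 29.0% without strand, 18.5% with the replicate block and 15.2% with the offsets. The share was 15.2% at a threshold of 0.05, 8.09% with the cortical score, 7.68% with the block and offsets and 0% with the unassigned share. With all 24 libraries in 1 fit, 4087 of 21500 genes were called. Among fits without 1 library, the fewest genes were called without MSUS female 3 (3102 of 20728), where 1 member was called. The most were called without MSUS female 1 (5737 of 20707), where 5 members were called. Between Con females and Con males the count of 1 became 4 by DESeq2 (7.32% of all genes called) and 2 with counts without strand (5.78%). It was 0 with the replicate block, the unassigned share, the cortical score, the offsets, the block with the offsets, all libraries in 1 fit or a threshold of 0.05, settings that called 0.0388 to 0.288% of all genes. Without 1 library it ran from 0 to 2, in fits that called 0.0962 to 6.70% of all genes, and the 2 came at 6.70%. The counts of 0 in males, in MSUS and for the interaction stayed at 0 under every setting run. With the replicate block, the adjusted p (edgeR) was 0.0783 for Klf13 and 0.121 for Klf9 in females and 0.204 for Klf2 in Con. The causes were not tested.

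The changes of sign were all in values that passed no test, on the log2 scale. With the cortical score, the values were 0.014 (Klf2), 0.12 (Klf6), 0.0011 (Klf7) and 0.18 (Klf10) in females, -0.016 (Klf3), -0.030 (Klf10) and -0.015 (Klf13) in males, -0.062 (Klf6) and -0.051 (Klf7) for sex in Con, 0.0061 (Klf3), 0.057 (Klf13) and -0.049 (Klf15) for sex in MSUS, 0.047 (Klf6), 0.018 (Klf7), 0.18 (Klf10), -0.0081 (Klf15) and -0.12 (Klf16) for the interaction. With the unassigned share, the values were 0.060 (Klf15) and 0.15 (Klf16) in females, -0.0036 (Klf3) and -0.021 (Klf13) in males, -0.11 (Klf6) and -0.079 (Klf7) for sex in Con, 0.057 (Klf13) for sex in MSUS. With the offsets, the values were 0.017 (Klf2), 0.075 (Klf15) and 0.091 (Klf16) in females, -0.0065 (Klf3) in males, -0.0092 (Klf16) for sex in Con. With the replicate block and the offsets, the values were 0.014 (Klf2), 0.077 (Klf15) and 0.11 (Klf16) in females, -0.0090 (Klf3) in males, -0.014 (Klf16) for sex in Con, 0.0047 (Klf13) for sex in MSUS. Without Con female 3 and MSUS male 6 together, a setting chosen after seeing the data, the interaction of Klf16 was -0.071.

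Without 1 library, values in females ran from -0.19 to 0.0034 (Klf4), -0.049 to 0.039 (Klf15) and -0.13 to 0.011 (Klf16). Without 1 library, values in males ran from -0.037 to 0.045 (Klf3), -0.080 to 0.35 (Klf6), -0.055 to 0.13 (Klf7), -0.0019 to 0.11 (Klf9), -0.093 to 0.18 (Klf10) and -0.065 to 0.068 (Klf13). Without 1 library, values for sex in Con ran from -0.0015 to 0.16 (Klf7). Without 1 library, values for sex in MSUS ran from -0.021 to 0.073 (Klf9), -0.075 to 0.043 (Klf13) and -0.017 to 0.083 (Klf15). Without 1 library, values for the interaction ran from -0.020 to 0.13 (Klf16).

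The planned covariate of spliced reads was not run, since the count files used here do not give it. Estrous stage was not used. The lowest raw count of a member in any library was 140, and the part of depth in these results was not tested. The marker scores and the unassigned share that moved with the groups limit what can be read from the estimates.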
